A study of Rattus norvegicus with 12 samples.

Results

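The main effect of L-DOPA on gene expression in the dopamine-depleted dorsal striatum was examined by setting the 6 arrays from rats that received L-DOPA against the 6 arrays from rats that did not. The members were chosen by treatment alone, so that all 12 of the 12 arrays took part. In each set of 6, 3 rats also had high frequency stimulation of the subthalamic nucleus, and the model held stimulation and slide as further terms. The question was which striatal genes differ with chronic L-DOPA whether or not the subthalamic nucleus is stimulated.

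RNA of male rats was hybridised to single-colour Agilent arrays, 1 array per rat, in 4 groups of 3. Every rat, the comparison rats included, had been lesioned in 1 hemisphere with 6-OHDA (9 µg), a toxin taken up by dopamine neurons, in the left substantia nigra pars compacta. Punches of the dorsal striatum were pooled for each rat, so that each value is an average over all cells of the tissue. The 6-OHDA group had the lesion alone. In the DOPA group each dose held L-DOPA at 25 mg/kg and benserazide at 12.5 mg/kg, which blocks the conversion of L-DOPA outside the brain, and 2 doses a day were injected over 19 days. The HFS group had an electrode in the subthalamic nucleus on the side of the lesion and received pulses of 60 µA lasting 80 µs, at a rate of 130 Hz, over 5 days. The DOPA/HFS group received both treatments, with the stimulation on the last 5 days of L-DOPA. Per the methods of the study, the last L-DOPA injection was given 12 h before killing, while stimulated rats were killed just after the stimulation was turned off. Age and strain are not given in the sources used here. No rat without a lesion was among the arrays, and the electrode was implanted in stimulated rats only.

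L-DOPA is the precursor from which dopamine is made, and in a striatum that has lost its dopamine fibres repeated doses are known to sensitise the projection neurons that carry D1 receptors and send their axons directly to the output nuclei of the basal ganglia. In these direct pathway neurons the D1 receptor acts through cyclic AMP, kinases and transcription factors of the Fos family on genes of neuropeptides such as prodynorphin. Involuntary movements, called dyskinesia, are the known side effect of such treatment, and many of the genes described here have been studied for that reason.

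Spots well above background made up 53.8% to 63.2% of an array without L-DOPA (median 59.6%) and 50.5% to 62.8% of an array with it (median 59%). Signals are given as log2 of the background-corrected intensity after quantile normalization, so a difference of 1 is a doubling. Each of the 3 slides held 1 array of each group, and the slide number is the sample number of the labels. Every group had a fixed place on the slides, and place and treatment therefore cannot be told apart. The rats were separate animals, and the p-values measure the spread between single arrays. With 6 arrays on each side, the precision is that of small sets.

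The labelled tissue was checked against genes that mark striatal projection neurons. All 12 spotted genes shared by both kinds of projection neuron passed the filter on dim probes, as did all 8 of the direct pathway and 4 of 5 of the indirect pathway. The summed level of the shared markers lay between 18.14 and 18.3 without L-DOPA and between 18.05 and 18.34 with it. Penk, the precursor of enkephalin, was well above background on all 12 arrays, with a lowest signal of 16.14 without L-DOPA and 16.41 with it.

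A pair of arrays of the DOPA/HFS group stood apart, replicate 1 in several leading genes and replicate 3 in its outlier spots. DOPA/HFS replicate 1 had signals at the level of the rats without L-DOPA in several of the genes that were high on the other 5 L-DOPA arrays. In Trh it read 7.82 where the next L-DOPA array read 10.5. DOPA/HFS replicate 3 had 4175 spots that the scanner software marked as outliers, against 2 to 25 on the other 11 arrays, and these spots were left out. The results below are given with all 12 arrays and, where they rest on these arrays, without them. DOPA/HFS replicate 1 was singled out by its own signals, which makes a result without it a description of the other 11 arrays.

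With all 12 arrays, limma called 0 of 20469 genes (0%). A call needed a p under 0.1 after adjustment by Benjamini and Hochberg, together with a fold that was over 1.2 or less than 0.8. At an unadjusted p under 0.05, 749 genes passed, of which 321 (1.57% of those tested) were higher with L-DOPA and 428 (2.09%) were lower. On average this limit would pick more genes than that if no gene differed. An exact Wilcoxon test of 6 against 6, run on the 18358 genes with a value on each array, called 0 genes and gave 472 at an unadjusted p under 0.05. With so few arrays that test passes after adjustment only if very many genes separate completely, so its 0 says little. The model with a product term called 1 gene, Igsf5. The signals of all 6 L-DOPA arrays lay above those of all 6 others for 19 genes (0.0928%) and below them for 10 genes (0.0489%). Among 20469 genes some separate so by chance, and a lack of overlap in a gene named below is not evidence by itself. Over all genes the median difference was -0.02, and the differences ran from -0.34 to 0.27 once the outermost twentieth of genes on each side was set aside. The genes named below are those of smallest unadjusted p in each direction and the members of the gene lists. Their direction in most arrays follows in part from being chosen this way.

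Among the higher genes, Igsf5 had the smallest p. It encodes a junctional adhesion molecule of the immunoglobulin superfamily. Its signal ran from 5.73 to 6.24 without L-DOPA (median 5.9) and from 6.69 to 8.12 with it (median 7.53). The sets of 6 did not overlap, and the lowest of the L-DOPA arrays was DOPA/HFS replicate 1. The difference was 1.57 (standard error 0.18), a fold of 2.97, and it was positive in 6 of 6 pairs, a pair being an array with L-DOPA and the array without it on the same slide and in the same stimulation state. The adjusted p in limma was 0.118 and ranged from 0.00387 to 1 over 28 alternatives, of which 9 brought the gene past the threshold. With normexp background correction the Igsf5 difference was 0.92, and it was 0.89 in the deposited table. An exact permutation (sign-flip) test, two-sided, over the 6 pairs gave p = 0.0312, the smallest value that 6 pairs can give. The gene was picked by its p on the same arrays, so this value is not separate evidence. The same holds for this test in the genes below.

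Neuropeptide precursors held the largest well measured difference among the leading genes. Trh encodes the precursor of thyrotropin-releasing hormone. Its signal ran from 7.59 to 8.07 without L-DOPA (median 7.91) and from 7.82 to 11.03 with it (median 10.68). On 5 of the 6 L-DOPA arrays it lay far above every array without L-DOPA, and the overlap came from DOPA/HFS replicate 1 alone. The difference was 2.37 (standard error 0.4), a fold of 5.15, with an adjusted p of 0.495 in limma, a positive value in 6 of 6 pairs and p = 0.0312 in the exact permutation (sign-flip) test, two-sided. Without DOPA/HFS replicate 1 the difference was 2.82 (standard error 0.13) and the gene passed the threshold with an adjusted p of 7.48e-05, the lowest in a range up to 1 over 28 alternatives. That array was singled out by low signals in this and other genes, so the smaller error and p follow in part from that choice.

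Pdyn encodes prodynorphin, the precursor of the opioid peptides of direct pathway neurons. Its signal ran from 14.36 to 14.83 without L-DOPA (median 14.73) and from 14.68 to 16.21 with it (median 15.93). DOPA/HFS replicate 1 was again the lowest and lay within the range of the untreated arrays, and the other 5 were above that range. The difference was 1.11 (standard error 0.2), a fold of 2.16, positive in 5 of 6 pairs, with an adjusted p of 0.495 in limma (0.00288 to 1 over 28 alternatives) and p = 0.0625 in the exact permutation (sign-flip) test, two-sided. Without DOPA/HFS replicate 1 it was 1.32 (standard error 0.11) and passed the threshold. Passing it again follows in part from how that array was singled out. Since the tissue is a mixture, a change in the number of cells of a type and a change in RNA per cell cannot be told apart.

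Of 31 spotted neuropeptide precursors 30 were measured, and 6 were higher and 1 lower at an unadjusted p under 0.05, against 1.57% and 2.09% of all genes. The median was 0.04, against -0.02 over all genes, and it was 0.12 without DOPA/HFS replicate 1 and 0.02 without DOPA/HFS replicate 3. Besides Trh and Pdyn the higher ones were Scg2, which encodes secretogranin 2 of dense core vesicles (0.73, standard error 0.17), Tac3, which encodes neurokinin B (0.57, standard error 0.24), Nts, the neurotensin precursor that the files name Nts_predicted (0.42, standard error 0.19), and Nmu, the neuromedin U precursor (1.26, standard error 0.48, over 11 arrays because 1 spot was an outlier, and 0.82 without 6-OHDA replicate 2). The lower one was Nxph4, which encodes a neurexophilin, a protein that resembles a neuropeptide precursor (-0.42, standard error 0.12). Nxph4 was well above background on 4 of 6 untreated and 1 of 6 treated arrays, and its difference was -0.08 with normexp background correction and -0.1 in the deposited table. Penk differed by 0.05 and Tac1, the substance P precursor of direct pathway neurons, by -0.04. The peptides of interneurons also lay close to their spread, at -0.25 for Sst (standard error 0.32) and 0.14 for Npy (standard error 0.15). Of the 13 measured genes that process neuropeptides, 0 passed an unadjusted p of 0.05 in either direction, with a median of 0.06.

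A set of sarcomere genes, known for their part in striated muscle, stood among the leading genes. Tnnt1 encodes the slow skeletal troponin T. Its signal ran from 9.38 to 9.98 without L-DOPA (median 9.65) and from 10.05 to 11.52 with it (median 11.02). The sets did not overlap, and the difference was 1.29 (standard error 0.22), with a fold of 2.45, positive in 6 of 6 pairs and with an adjusted p of 0.495 in limma (0.0139 to 1 over 28 alternatives).

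Tnni3 encodes the cardiac troponin I, and its signal ran from 11.3 to 12.01 without L-DOPA (median 11.73) and from 12.04 to 12.95 with it (median 12.47). Here too the sets did not overlap, though only just, as DOPA/HFS replicate 1 lay next to the highest untreated array. The difference was 0.81 (standard error 0.14), a fold of 1.75. Unc45b, named Unc45b_predicted in the files, encodes a chaperone of myosin and was 0.93 higher (standard error 0.17) without overlap of the sets. In the list of 14 measured sarcomere genes, 4 were higher and 1 was lower at an unadjusted p under 0.05, against 1.57% and 2.09% of all genes. The differences were positive in 8 and negative in 6, with a median of 0.05. The others that were higher were Tpm1 (0.32) and Acta1 (0.32), which encode tropomyosin 1 and skeletal actin, and Tnnc2, which encodes fast skeletal troponin C, was lower at -0.61 (standard error 0.21).

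Further genes among the leading higher ones followed. Prkcd, which encodes protein kinase C delta, had signals from 11.28 to 12.36 without L-DOPA (median 11.48) and from 11.93 to 12.95 with it (median 12.71). The overlap came from DOPA/HFS replicate 1 at 11.93, which lay below 6-OHDA replicates 1 and 3, while the HFS arrays (11.28 to 11.49) and 6-OHDA replicate 2 (11.48) were the low ones. The difference was 0.89 (standard error 0.16), a fold of 1.85, positive in 6 of 6 pairs, and it was 0.81 without stimulation and 0.96 with it. Cpne9 encodes a copine, a protein that binds membranes when calcium is high, and was 1.01 higher (standard error 0.18). Crhr1, the receptor of corticotropin-releasing hormone, was 0.91 higher (standard error 0.18), with 5 L-DOPA arrays between 9.88 and 10.23 and DOPA/HFS replicate 1 at 8.73, within the untreated range of 8.7 to 9.05. Cytip, which encodes a protein that binds cytohesins, was 0.93 higher (standard error 0.17) and the sets did not overlap. Htra4, named Htra4_predicted in the files, encodes a serine protease and was 0.77 higher (standard error 0.15).

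Cryba2 encodes a beta crystallin of the lens. It was not well above background on any of the 6 arrays without L-DOPA and was so on 5 of the 6 with it, all except DOPA/HFS replicate 1. Such a gene has only a bound, and the mean of the L-DOPA arrays was set against a floor for each array, the dimmest signal still well above background on it or, where that was higher, the signal of the probe itself. On that scale Cryba2 was at least 2.98-fold higher with L-DOPA. The bound depends on the background treatment, since the fitted log2 difference of 2.76 was 0.81 with normexp background correction and 0.8 in the deposited table. By the same calculation Amhr2, the receptor of anti-Müllerian hormone, was at least 2.39-fold higher and Prom2, which encodes a membrane protein of cell protrusions, at least 1.82-fold, and other background treatments were not run for them. Both were well above background on 5 of 6 L-DOPA arrays and on 0 of 6 others.

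**Figure D1:**
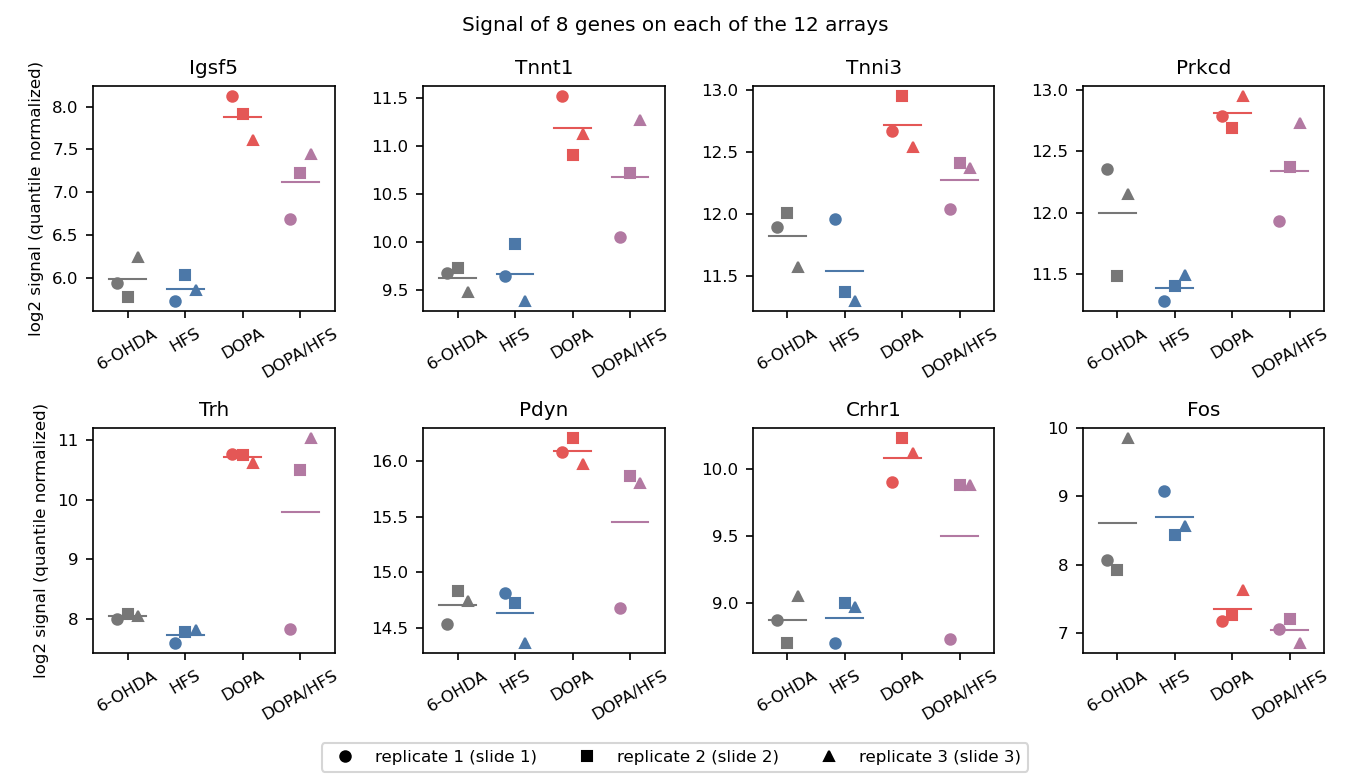
Log2 signal after quantile normalization (vertical axes) of 8 genes on the 12 arrays by group (horizontal axes), with 1 symbol per array, its shape giving the replicate number, which is the slide, and lines at the group means. In Trh, Pdyn and Crhr1 the circle of DOPA/HFS replicate 1 lies at the level of the groups without L-DOPA, and in Fos all 6 L-DOPA arrays lie below the other 6.

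Leaving out DOPA/HFS replicate 1 brought 34 genes past the threshold in limma, 33 of them higher with L-DOPA (0.161% of the genes tested) and 1 lower (0.00489%). Of the higher ones, Cryba2, Amhr2 and Prom2 were well above background on 0 of 6 untreated arrays, and TC523154, Plek2_predicted and RGD1565384_predicted on 1 of 6, so these passed the filter on dim probes through the L-DOPA arrays and had to differ. At an unadjusted p under 0.05 there were then 541 higher genes (2.64%) and 659 lower genes (3.22%). Leaving out any other single array gave 0 genes, with 550 to 1404 at an unadjusted p under 0.05. Without all 4 arrays of slide 1, on which that array lay, 18 genes passed and 17 of them were among the 34. Without DOPA/HFS replicate 3 there were 0 genes, with 949 at an unadjusted p under 0.05, and without both DOPA/HFS arrays 24 genes passed, 22 of them shared with the 34.

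The 34 genes, named after their values had been seen, included 4 of 30 measured neuropeptide precursors, against 0.161% of all genes called higher. These were Trh, Pdyn, Nmu (1.86) and Nts (0.62). The array left out had been singled out by low signals in genes such as Trh and Pdyn. The count in part restates that choice and is not independent evidence. The 34 also included 2 of 14 measured sarcomere genes, Tnnt1 (1.49) and Tnni3 (0.9), and the chaperone gene Unc45b (1.06). Kcnk13, which encodes a potassium channel with tandem pore domains, rose by 1.29 and Crhr1 by 1.09. Others were Wnt10a (1.91), a Wnt ligand named Wnt10a_predicted in the files, Grem1 (1.06), an antagonist of bone morphogenetic proteins, Ctsk (1.53), the protease cathepsin K, and Efemp2 (1.12), a fibulin of elastic fibres. Nefh, the heavy neurofilament gene, rose by 1.06, and Tpbg, which encodes a membrane glycoprotein that inhibits Wnt signals, rose by 1.38. Hes3 (1.62) and Batf3 (0.88), which encode transcription factors, were both dim, with 2 of 6 untreated arrays well above background for each and with 6 and 4 of 6 treated ones. The gene that fell was Slc18a2, the vesicular transporter of monoamines, by 0.99 on the log2 scale (standard error 0.15, adjusted p = 0.0587).

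In the pair that the left-out array forms with HFS replicate 1, 18 of the 34 genes had the sign of the other arrays, 15 had the opposite sign and 1 was at 0. Trh differed there by 0.23, Pdyn by -0.13, Nmu by -0.99, Ctsk by -0.78 and Kcnk13 by -0.27. Igsf5 (0.96), Prkcd (0.65) and Tnnt1 (0.42) were higher there as well. Fos (7.05) and Igsf5 (6.69) on this array lay outside the untreated range, as on the other L-DOPA arrays, while Trh and Pdyn lay inside it. What set this array apart was not tested, and whether its label is right cannot be told from the files.

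**Figure D2:**
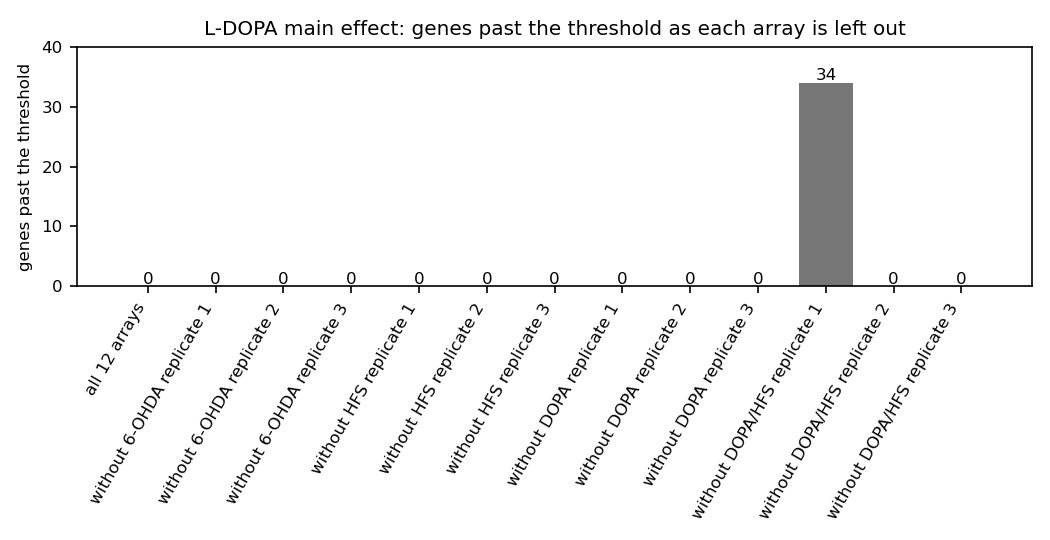
Number of genes past the threshold for the L-DOPA main effect (adjusted p under 0.1 with the fold limits, limma) with all 12 arrays and with each array left out in turn. The bar without DOPA/HFS replicate 1 stands at 34 and all others at 0.

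Among the lower genes Fos came first. It encodes the transcription factor c-Fos, whose RNA appears within minutes of neuronal activity and is lost again soon after. Its signal ran from 7.92 to 9.85 without L-DOPA (median 8.49) and from 6.85 to 7.62 with it (median 7.18). All 6 L-DOPA arrays lay below all 6 others, DOPA/HFS replicate 1 included, and the highest untreated array was 6-OHDA replicate 3. The difference was -1.46 (standard error 0.28), that is a fold of 2.75 for untreated over treated, and it was negative in 6 of 6 pairs. The adjusted p was 0.576 in limma and ranged from 0.271 to 1 over 28 alternatives, and the exact permutation (sign-flip) test, two-sided, gave p = 0.0312. The difference was -1.26 without stimulation and -1.65 with it. Without DOPA/HFS replicate 1 it stayed at -1.46.

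The immediate early genes, which neuronal activity switches on without new protein synthesis, had mostly negative differences. Of 27 measured genes 0 were higher and 10 were lower at an unadjusted p under 0.05, against 1.57% and 2.09% of all genes, 24 had a negative difference, and the median was -0.44, against -0.02 over all genes. By pair the median was -0.27, -0.05 and -0.38 without stimulation and -0.95, -0.5 and 0.09 with it, on slides 1 to 3. The summed level of the list, of which Jund made up 40.2%, overlapped between the sets, from 16.42 to 17.51 without L-DOPA and from 16.35 to 17.17 with it. Without DOPA/HFS replicate 1 the counts were 0 and 7, against 2.64% and 3.22% of all genes, and the median was -0.28. Egr2, a zinc finger transcription factor gene, differed by -1.19 (standard error 0.49), Dusp1, which encodes a phosphatase of MAP kinases, by -0.77 (standard error 0.27) and Arc, whose protein acts at synapses, by -0.63 (standard error 0.25). The other lower genes were Atf3 (-0.63), Btg2 (-0.61), Junb (-0.58), Ier2 (-0.57), Sgk1 (-0.48) and Egr3 (-0.33). With normexp background correction Atf3 differed by -0.3 and Egr3 by -0.12. The difference of Egr2 was -0.71 without HFS replicate 1, and those of Ier2 and Atf3 were -0.35 and -0.4 without 6-OHDA replicate 3. None of the 10 reached the adjusted threshold in any of the alternatives.

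The spread between arrays was wide in this list. The Egr2 signal without L-DOPA ran from 7.96 to 11.25, and with it from 7.49 to 8.2, so that the difference came from high values among the untreated arrays. In 3 members the sign was positive, and these were Jund (0.13), Gadd45b (0.06) and Fosb (0.03), the last with a standard error of 0.16. The median was -0.24 without stimulation and -0.52 with it. Of 17 measured genes of slower activity-induced effectors, 1 was higher (Rgs4, a regulator of G protein signalling, 0.29) and 0 were lower, against 1.57% and 2.09% of all genes. The counts were 4 and 0 without DOPA/HFS replicate 1, against 2.64% and 3.22% of all genes. The median was 0.15, with 0.22 in unstimulated and -0.09 in stimulated rats.

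**Figure D3:**
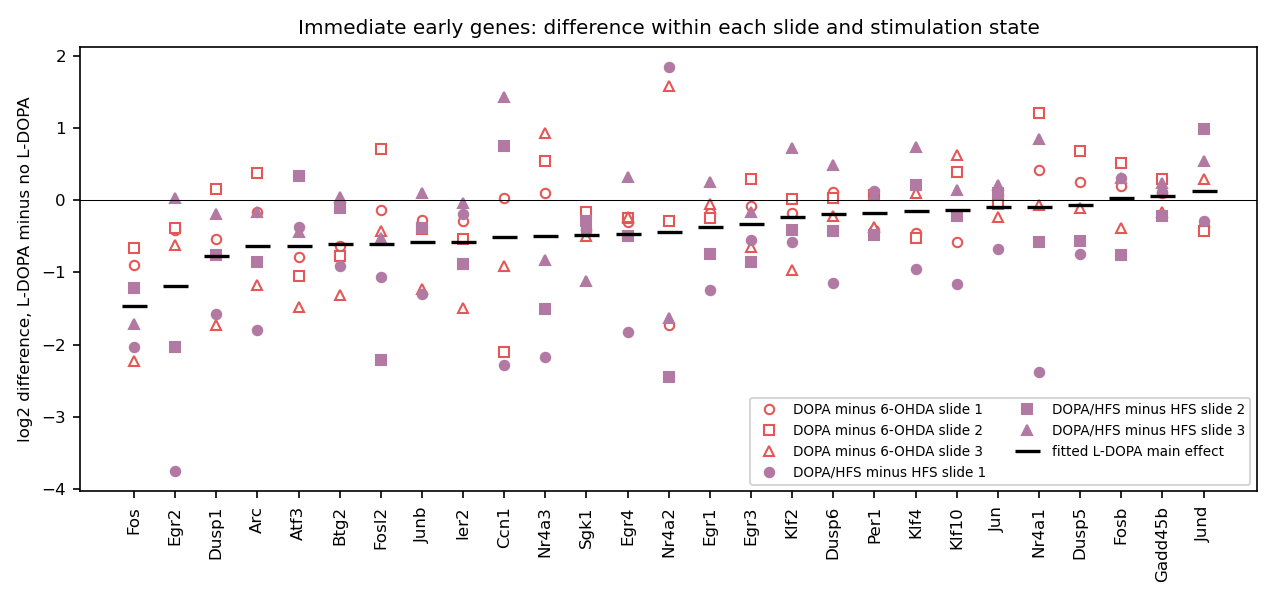
Log2 difference between the array with L-DOPA and the array without it (vertical axis) for each of the 27 measured immediate early genes (horizontal axis), with open symbols for the 3 unstimulated and filled symbols for the 3 stimulated pairs, and bars at the fitted main effect. The 6 points of Fos all lie below 0, while those of most other genes spread to both sides.

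The other leading lower genes had smaller differences. C8b, named C8b_mapped in the files, encodes the beta chain of complement component 8 and was lower on all 6 L-DOPA arrays (4.44 to 5.33) than on the 6 others (5.39 to 6.15), with a difference of -0.78 (standard error 0.2). Aebp1, named Aebp1_predicted, encodes a protein of the extracellular matrix and also showed no overlap, at -0.57 (standard error 0.17). Lcat, the enzyme that esterifies cholesterol in lipoproteins, differed by -0.49, and Gpx3, a secreted glutathione peroxidase, by -0.62. Tagln2, which encodes an actin-binding protein, differed by -0.39 and Nat8f1, an acetyltransferase gene, by -0.51. Irs3, an insulin receptor substrate gene, differed by -1.04 (standard error 0.3), but it was well above background on 4 of 6 untreated and 1 of 6 treated arrays. Pclaf, which encodes a partner of the replication clamp, differed by -0.71 over 11 arrays and Knstrn, a spindle protein gene, by -0.72. With normexp background correction the differences were smaller, such as -0.32 for Lcat, -0.37 for Gpx3, -0.24 for C8b_mapped, -0.22 for Nat8f1, -0.17 for Knstrn and -0.21 for Irs3, and that of Pclaf was -0.07 with outlier spots kept. Each of these had an adjusted p of 0.999 in limma.

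Of 8 measured direct pathway genes 2 were higher at an unadjusted p under 0.05 and 0 lower, against 1.57% and 2.09% of all genes. These were Pdyn and Slc35d3 (0.38, standard error 0.15, over 11 arrays, and 0.24 with array weights), and the median was 0.1, while Pdyn alone was higher at that limit without DOPA/HFS replicate 1. Drd1, the D1 dopamine receptor, differed by 0.08 (standard error 0.14). In the indirect pathway 0 of 4 genes passed in either direction, with Drd2 at 0.03 and Adora2a at -0.08, and of the 12 shared markers 0 passed, with a median of 0.02. When DOPA/HFS replicate 1 was left out, 0 of the shared markers were higher and 1 was lower, with a median of -0.08. The shares over all genes were then 2.64% and 3.22%.

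Of 10 measured genes of dopamine receptors and dopamine handling, 1 was higher and 0 were lower, against 1.57% and 2.09% of all genes, with a median of 0.1. When DOPA/HFS replicate 1 was left out, the counts were 2 and 2, against 2.64% and 3.22% of all genes, with a median of 0.01. Th, which encodes tyrosine hydroxylase and whose protein the lesion removes from the striatum together with the dopamine fibres, had signals from 4.38 to 5.39 without L-DOPA (median 5.33) and from 5.5 to 6.07 with it (median 5.8). The sets did not overlap, though the gene was dim, well above background on 4 of 6 untreated and 6 of 6 treated arrays. The difference was 0.61 (standard error 0.16), and for Th it was 0.18 with normexp background correction. Slc18a2 differed by -0.61 with all arrays, and its highest L-DOPA array was DOPA/HFS replicate 1 at 6.8.

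A list of 10 further receptor genes was taken from those the study names after its own tests on these arrays, so the count in part restates that choice and is not independent evidence. Of these, 4 were higher and 2 lower at an unadjusted p under 0.05, against 1.57% and 2.09% of all genes, with a median of 0.08. The higher ones were Crhr1, Hcrtr1 (1.38, standard error 0.41), the orexin receptor type 1, Mas1 (0.87, standard error 0.34), a receptor of angiotensin fragments, and Cnr1 (0.68, standard error 0.23), the main brain cannabinoid receptor. Hcrtr1 was well above background on 4 of 6 untreated and 6 of 6 treated arrays, and its difference was 0.49 with normexp background correction, with which Mas1 differed by 0.54 and Htr2c by -0.25. The lower ones were Htr2c (-0.41), a serotonin receptor, and Agtr1a (-0.26), an angiotensin receptor. When DOPA/HFS replicate 1 was left out, the counts were 4 and 3, against 2.64% and 3.22% of all genes, with a median of 0.

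The study also names genes from earlier arrays on dyskinesia, and it chose which to name with its own results on these arrays at hand, so their direction is not independent evidence. To these was added Ppp3r1, which the study names elsewhere. Of 14 measured, 8 were higher and 1 lower at an unadjusted p under 0.05, against 1.57% and 2.09% of all genes, with a median of 0.34. They were Nefh (0.89, standard error 0.18), Prkcd, Tnni3, Scg2, Itga7 (0.6), an integrin gene of laminin binding, Cdh22 (0.44), a cadherin gene, Rgc32 (0.39) and Rgs4 (0.29). The lower one was Igfbp5, which encodes a binding protein of insulin-like growth factors (-0.61, standard error 0.2), lower in 6 of 6 pairs. In Nefh, 5 L-DOPA arrays lay between 11.45 and 11.88 and DOPA/HFS replicate 1 at 10.49, inside the untreated range of 10.33 to 10.83.

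Of 16 measured genes of neurotrophins, the GDNF family and their receptors, 1 was higher and 0 were lower, against 1.57% and 2.09% of all genes, with a median of -0.07. The higher one was Ngfr, the p75 neurotrophin receptor, with signals from 5.17 to 6.43 without L-DOPA (median 5.9) and from 6.67 to 9.81 with it (median 7.73). The sets did not overlap. The difference was 2.03 (standard error 0.47, adjusted p between 0.238 and 1 in limma over 28 alternatives, positive in 6 of 6 pairs), and it was 3.06 without stimulation and 1 with it. With normexp background correction the Ngfr difference was 1.23. Ngfr is a gene the study names after its own tests on these arrays, so its direction is not independent evidence.

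For the lists that follow, the shares over all genes are again 1.57% higher and 2.09% lower. Of 5 measured genes of major histocompatibility complex class II, which present peptides on antigen-presenting cells, 3 were higher and 0 lower, with a median of 0.49. They were Cd74, the invariant chain (1.05, standard error 0.32), RT1-Da (0.92, standard error 0.34) and RT1-Bb (0.49, standard error 0.18, over 11 arrays), and in all 3 the sets of arrays overlapped. In the deposited table the differences were 0.6 for Cd74, 0.34 for RT1-Da and 0.19 for RT1-Bb. With outlier spots kept the RT1-Bb difference was 0.96 (standard error 0.44). Of 13 complement genes 1 was higher, C1s (0.5, standard error 0.14, and 0.28 in the deposited table), with a list median of 0.05. RT1-Da and C1s are among the genes the study names after its own tests on these arrays, so these counts are not independent evidence. Of 17 interferon response genes 0 were higher and 3 were lower, Rsad2 (-0.6), Oas1a (-0.48) and Oas1i (-0.46), with a median of -0.08. With normexp background correction Rsad2 differed by -0.31 and Oas1i by -0.22. Markers of microglia and macrophages gave 0 of 12 in either direction, with a median of 0.08.

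In the extracellular matrix and adhesion list, 4 of 29 genes were higher and 1 was lower, against 1.57% and 2.09% of all genes, with a median of 0.02. They were Sdc1, a syndecan (0.94, standard error 0.31), Efemp2 (0.91, standard error 0.22), Itga7 and Col5a2, a collagen chain (0.41, and 0.22 in the deposited table), and the lower one was the integrin gene Itgb6 (-0.56). Sdc1, Itga7, Col5a2 and Itgb6 are genes the study names after its own tests on these arrays. The count in part restates that choice and is not independent evidence. Of 18 endothelial and angiogenesis genes 0 passed in either direction, with a median of 0.11. Of 16 clock genes 1 was higher, Bhlhe41 (0.24), and the list median was -0.02. Among 15 common reference genes 0 were higher and 1 was lower, Rpl13a (-0.23, standard error 0.09), and the median was -0.01. When DOPA/HFS replicate 1 was left out, the higher and lower counts of the clock genes were 0 and 1, with a median of -0.1. They were then 4 and 2 for the extracellular matrix list, 1 and 0 for the endothelial list and 0 and 2 for the reference genes. The shares over all genes were then 2.64% and 3.22%.

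The choroid plexus, the secretory tissue of the ventricles, is not part of the striatum, and its markers were high on single arrays. The summed level of 9 of its genes, of which Ttr made up 46.5%, was 16.72 on HFS replicate 1 and 16.03 on HFS replicate 3, against 13.3 to 14.06 on the 4 other arrays without L-DOPA, and it was 14.74 on DOPA replicate 3, against 13.1 to 13.53 on the other 5 L-DOPA arrays. The 11 measured markers all had a negative difference, with a median of -0.91, and 3 were lower at an unadjusted p under 0.05 (Slc4a5 over 11 arrays, Igf2 and Car4). The median was -0.7 and 1 marker was lower without DOPA/HFS replicate 1, and without DOPA/HFS replicate 3 the median was -0.57. That median was 0.05 without stimulation and -1.87 with it, and 8 of the 11 genes had an unadjusted p under 0.05 in the interaction, against 2.59% of all genes. Their part in the differences of other genes was not tested.

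Markers of ependyma, the ciliated lining of the ventricles, also had negative differences in all 11 measured genes, with a median of -0.31, and 0 passed an unadjusted p of 0.05. Their summed level, of which Foxj1 made up 55.3%, ran from 11.42 to 13.35 without L-DOPA and from 11.68 to 12.87 with it, so the sets overlapped. Leptomeningeal markers gave 1 higher (Crabp2, 0.57) and 1 lower (Igf2) of 11, with a median of 0.09. Astrocyte markers gave 0 of 11 in either direction (median 0.01), and oligodendrocyte markers gave 1 lower, Mog (-0.28), of 14 (median -0.09). Of 10 cholinergic interneuron markers 1 was lower, Zic4 (Zic4_predicted in the files, -0.75, and -0.36 with normexp background correction), and of 11 markers of other interneurons 1 was higher, Th. Markers of neighbouring tissue were measured as well. Cortex gave 0 of 6 (median 0.09), blood gave 0 of 3 (median -0.02), and septum, pallidum and thalamus gave 1 of 9, which was Prkcd (median 0.05). Against 2.64% and 3.22% of all genes when DOPA/HFS replicate 1 was left out, the last list had 1 higher and 3 lower genes, the leptomeninges 2 and 0, the oligodendrocytes 0 and 2 and the cortex 1 and 0.

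The L-DOPA difference was also read in each stimulation state on its own, DOPA against 6-OHDA and DOPA/HFS against HFS, which share no array. In limma 0 genes passed in either state, with 283 higher and 342 lower at an unadjusted p under 0.05 without stimulation, and 202 higher and 439 lower with it. Without DOPA/HFS replicate 1 there were 8 and 4 genes past the threshold. The 8 were Trh, Pdyn, Igsf5, Crhr1, TC523154 and the dim Cryba2, Amhr2 and Prom2. The 4 were Trh, TC523154 and the dim Cryba2 and Amhr2. TC523154 was well above background on 1 of 6 untreated and 6 of 6 treated arrays. It and the dim ones passed the filter through the L-DOPA arrays. The model shares its spread over all arrays, so leaving out this array also moved the count without stimulation. Each of the 12 leading higher genes had a positive difference in both states, as their choice by the main effect favours. Across 18358 genes, those read on every array, the differences of the 2 states had a Pearson correlation of 0.0718, and of 0.101 without DOPA/HFS replicate 1. A Pearson correlation gives much weight to extreme genes, such as Kcnj13 of the choroid plexus list (1.95 and -4.65), and their part was not tested. Genes are not independent replicates, and the pairs lay on the same 3 slides.

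Genes were then picked in 1 state, at an unadjusted p under 0.05 with the fold limits in a fit of its 6 arrays, and read in the other. Of 333 genes picked as higher in DOPA than in 6-OHDA, 41.4% were higher in the stimulated pair of slide 1, which holds DOPA/HFS replicate 1, against 46.2% of all genes. On slide 2 it was 65.5% against 50.2%, and on slide 3 it was 58.8% of the 301 with a value against 46.1%. For 406 genes picked as lower, the shares that were lower were 58.1%, 46.1% and 57.1% on slides 1 to 3, against 53.8%, 49.8% and 53.9% of all genes. In the other direction, of 134 genes picked as higher in DOPA/HFS than in HFS, 49.3%, 59.7% and 74.2% were higher in the unstimulated pairs of slides 1 to 3, against 49.3%, 48.7% and 46.9% of all genes. Of 378 genes picked as lower, 23% were lower in the unstimulated pair of slide 1, against 50.7% of all genes, and 65.8% and 61.4% were so on slides 2 and 3, against 51.3% and 53.1%.

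**Figure D4:**
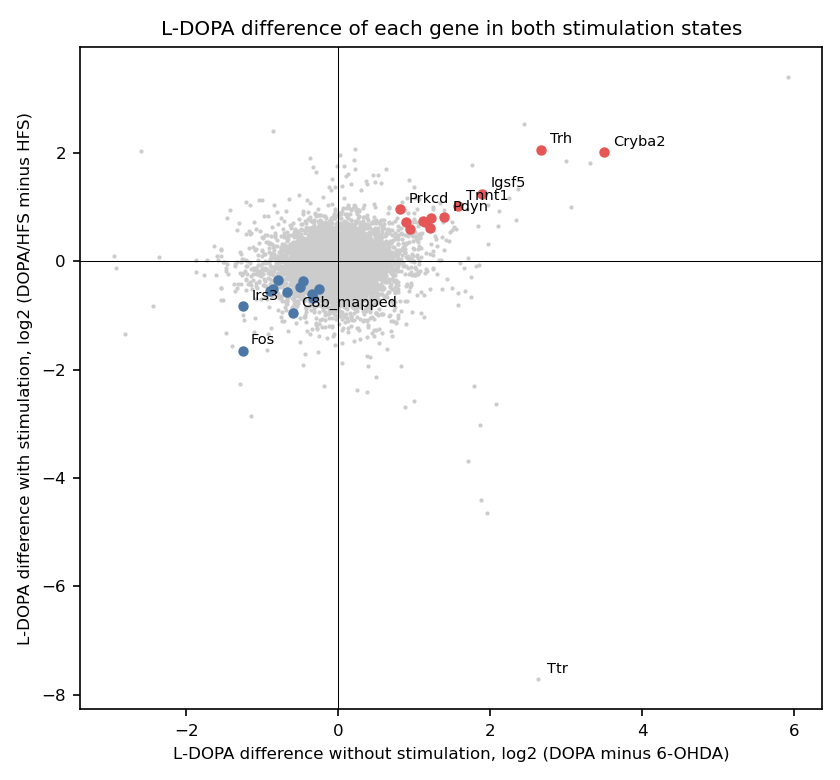
Log2 difference with L-DOPA without stimulation (horizontal axis, DOPA minus 6-OHDA) and with stimulation (vertical axis, DOPA/HFS minus HFS), 1 grey point per gene, with the 12 leading higher genes in red and the 12 leading lower genes in blue. Trh lies at 2.67 and 2.06, and Ttr of the choroid plexus lies far from the rest at 2.63 and -7.71.

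The interaction, which asks whether the L-DOPA difference depended on stimulation, gave 0 genes in limma. Its lowest adjusted p was 1, and unadjusted p-values under 0.05 were found for 531 genes. The genes of smallest p were Pls3, Slc24a5, Nr4a3, Acsm5 and Pmf31. Pls3 encodes an actin-bundling plastin, and its L-DOPA difference was 0.41 without stimulation and -0.94 with it (interaction of -1.35, standard error 0.23). Nr4a3, an orphan nuclear receptor gene among the immediate early genes, differed by 0.53 and -1.5 (interaction of -2.04, standard error 0.36). Its signal was 9.1 to 10.23 on the HFS arrays and 7.95 to 8.88 on the other 9, so the HFS arrays were the high ones. Slc24a5 (Slc24a5_predicted in the files), an exchanger gene of pigment cells, differed by 0.76 and -1.12.

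When the squared deviations of log2 signal from each gene's mean were summed over 18358 genes, L-DOPA took up 7.81% with its 1 degree of freedom, stimulation 10.2% and their interaction 6.71%. Slides took up 13.1% per degree of freedom, and the remainder 8.18% per degree of freedom. The main effect of stimulation, fitted in the same model, also gave 0 genes in limma, with a lowest adjusted p of 0.62 and 1478 at an unadjusted p under 0.05.

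Promoter sequences from RefSeq (build GRCr8) are shown for 2 peptide genes and 2 troponin genes among the leading higher genes, each of which lay above every untreated array on 5 or 6 of the 6 L-DOPA arrays. Each spans 300 bases around the start of the gene, most of them before it, on the strand of the gene. Tnni3 and Tnnt1 are neighbours on chromosome 1. Motifs were searched on both strands, which were the cyclic AMP response element TGACGTCA, its shorter form TGACG, which it contains, and the AP-1 motif TGANTCA, and capitals mark a match. Of 33469 rat promoters of this length, 1.83% held the full element, 21.2% the shorter form and 7.33% the AP-1 motif. Of the 12 leading genes in each direction, 10 matched an entry by symbol, and Igsf5, Htra4, Fos and Nxph4 did not. Some genes have more than 1 entry. Of 11 entries of the higher genes 0, 2 and 1 held the full element, the shorter form and AP-1, and of 12 entries of the lower genes 0, 1 and 1. A match describes the letters and is not a site of binding. Trh (chr4:126301713-126302012, minus strand) and Tnnt1 (chr1:78348785-78349084, plus strand) hold the shorter form on the opposite strand, read as CGTCA, while Pdyn (chr3:137366454-137366753, minus strand) and Tnni3 (chr1:78342321-78342620, plus strand) hold none of the motifs in this window.
Trh: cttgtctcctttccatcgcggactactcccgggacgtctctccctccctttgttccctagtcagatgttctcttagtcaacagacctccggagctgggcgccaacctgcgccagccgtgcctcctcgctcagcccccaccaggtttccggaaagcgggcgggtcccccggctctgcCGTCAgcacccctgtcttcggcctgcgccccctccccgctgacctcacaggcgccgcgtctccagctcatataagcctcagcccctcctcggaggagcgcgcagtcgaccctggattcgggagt
Pdyn: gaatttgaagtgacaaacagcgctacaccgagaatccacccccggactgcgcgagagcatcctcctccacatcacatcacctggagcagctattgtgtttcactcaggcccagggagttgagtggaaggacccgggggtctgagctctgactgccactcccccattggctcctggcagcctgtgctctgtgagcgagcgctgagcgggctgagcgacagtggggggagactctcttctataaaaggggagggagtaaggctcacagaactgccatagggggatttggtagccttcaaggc
Tnni3: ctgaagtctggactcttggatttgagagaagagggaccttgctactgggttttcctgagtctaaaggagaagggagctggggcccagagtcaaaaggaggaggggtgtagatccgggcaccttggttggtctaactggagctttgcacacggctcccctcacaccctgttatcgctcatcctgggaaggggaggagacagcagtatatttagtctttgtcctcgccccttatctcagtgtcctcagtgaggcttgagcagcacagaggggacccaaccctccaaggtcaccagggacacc
Tnnt1: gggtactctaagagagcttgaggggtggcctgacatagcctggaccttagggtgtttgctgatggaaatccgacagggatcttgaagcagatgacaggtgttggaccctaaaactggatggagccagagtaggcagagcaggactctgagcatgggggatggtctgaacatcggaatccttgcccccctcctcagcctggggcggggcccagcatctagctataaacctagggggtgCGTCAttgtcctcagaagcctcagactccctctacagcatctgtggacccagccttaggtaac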

How the data were processed

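Total RNA of the dorsal striatum of 12 rats was measured on Agilent rat 4x44K arrays. Per the file headers the authors extracted single-colour intensity values with Feature Extraction 9.1.3.1, and gProcessedSignal is the background-corrected intensity. The deposited table holds the authors' normalized log2 values and served as an alternative only. The labels and the paper give different amounts of RNA for labelling. Of 45018 spots per array 1639 controls were left out, as were spots marked as outliers, and log2 values were quantile normalized. Probes had to be well above background on a share of 0.4 or more of the arrays, with the brightest probe per gene, and 10735 of 24824 probes with RefSeq-type accessions got their symbol from the gene table. This left 20469 genes. R 4.3.3 with limma 3.58.1, jsonlite 2.0.0 and version 1.17.8 of data.table fitted L-DOPA, stimulation and slide as additive terms, and a model with their product gave the states and the interaction. Calls needed a p under 0.1 after adjustment by Benjamini and Hochberg, and a fold that was over 1.2 or less than 0.8.

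Named genes were the 12 of smallest p in each direction among those with a gene symbol and past the fold limits, the 5 of smallest interaction p and list members at an unadjusted p under 0.05. Genes past the threshold only without DOPA/HFS replicate 1, and other list members given by value, were chosen for naming once their values were known. The members and lists were chosen with earlier results of these data known. The sample number was checked as the slide. Correlations of deviations from group means between arrays of different groups ran from -0.287 to 0.476 (median 0.112, 10 of 18 pairs over 0.1) on the same slide and from -0.447 to 0.543 (median -0.0691, 7 of 36 pairs over 0.1) on different slides. Alternatives changed scaling, background correction, filter, probe choice, block, weights and limits, and left out each array and slide. The fits were tested on simulated data.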

Additional observations from a re-analysis of the deposited data

Results flagged for a closer look

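Values were compared within the 6 arrays of each L-DOPA state by the gap of the highest or lowest array to its nearest neighbour. This comparison picks about 1 in 20 groups by chance. Of 58 gene groups examined 4 stood out, all through DOPA/HFS replicate 1 among the arrays with L-DOPA. It was the lowest in Trh (7.82, next array 10.5), Pdyn (14.68, next 15.81), Cryba2 (3.19, next 6.3) and Crhr1 (8.73, next 9.88). Of 60 groups of summed list levels 3 stood out. The neuropeptide precursors were lowest on DOPA/HFS replicate 1 at 18.43, the choroid plexus markers were highest on DOPA replicate 3 at 14.74, and the leptomeningeal markers were highest on DOPA/HFS replicate 2 at 14.93. The number of spots marked as outliers was 4175 on DOPA/HFS replicate 3, far above the other arrays. What set these arrays apart was not tested.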

How the results depend on the processing

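With all 12 arrays the L-DOPA main effect gave 0 genes past the threshold. It gave 1 gene, Igsf5, with scaling to the 75th percentile, normexp background correction, a filter asking for all 6 arrays of an L-DOPA state, no replicate block, a random block and the product term. Leaving out each array in turn gave 0 to 33 higher and 0 to 1 lower genes, all of them without DOPA/HFS replicate 1, and leaving out slide 1 gave 18 higher genes. An alternative chosen after seeing the data, without both DOPA/HFS replicates 1 and 3, gave 23 higher and 1 lower, and it leaves DOPA/HFS with 1 array, assumed to vary like the others. The effect without stimulation gave 1 gene with no replicate block, 4 without both arrays and 0 to 8 when each array was left out, where DOPA/HFS replicates 1 and 2 changed the count. The effect with stimulation gave 1 lower gene with no filter on dim probes, 1 gene without both arrays and 0 to 4 when each array was left out, where DOPA/HFS replicate 1 changed the count. The interaction gave 0 with no replicate block, the 75th percentile, normexp, the deposited table, no filter, each array left out and both arrays left out, and the stimulation main effect gave 0 under the first 5 of these, the alternatives run for it. At an unadjusted p under 0.05 the split moved from 321 higher and 428 lower genes to 140 and 658 in the deposited table, and to 151 and 624 with outlier spots kept. No gene reversed its direction among those named by the p of the L-DOPA main effect or as list members at an unadjusted p under 0.05. The genes named by interaction p were not among these. Of them, Acsm5 had an L-DOPA main effect of -0.18 with all arrays and of 0.06 without DOPA/HFS replicate 3. Other genes given by value, such as those called only without DOPA/HFS replicate 1, were not run under the other alternatives. Of the values of named genes 2054 kept their side of the threshold and 36 passed it, and 15 list medians moved by more than their spread while 315 did not, nearly all of them read within 1 slide. The cause was not tested. Signal over background limits the dim genes, whose differences varied with the background correction. The filters left the differences of the named genes that passed them as they were. The filter asking for all 6 arrays of an L-DOPA state removed dim ones, such as Cryba2, Knstrn, Irs3, Nxph4 and Egr3. Leaving out a slide moved a difference by over 1.5 times for Tac3, Nts_predicted, Nmu, Cnr1, Mas1, Itga7, Rgc32, Sdc1, Acta1, Bhlhe41, Igf2, Car4 and Crabp2, among others.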
